A study of Mus musculus with 25 samples.

Results

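Txnip, Arrdc4 and the glucose-sensing Mondo factors are 5 genes of the 54429 in the deposited table: Txnip and Arrdc4, the factors Mlxip and Mlxipl, and their partner Mlx. They were taken by name in all libraries. The set was selected on measured values, the lower RPKM of Txnip and Arrdc4 with a P53 inhibitor, so that comparison is described here without a test. RNA was sequenced from cortical astrocytes of C57BL/6J mice, captured on dishes coated with an antibody to HepaCAM (immunopanning), an adhesion molecule of astrocytes, and then cultured. The 25 libraries form 9 groups. An inhibitor of EGFR, the epidermal growth factor receptor, or DMSO, its solvent control, was added on day 2 in vitro (3 libraries each). An inhibitor of P53, the tumour suppressor, or its own DMSO control was likewise added on day 2 (3 libraries each). Cells were given HBEGF, a ligand of EGFR, or were deprived of it from the day of preparation (2 libraries each). A time course sampled the cultures on days 2, 7 and 14 (3 libraries each). No group carries a genetic change. The sources used here do not name the inhibitors or their doses, the harvest day of treated cells or the age of the mice. Nor do they say whether replicates were separate animals or cultures, so the spread behind each p-value may be technical.

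Txnip encodes thioredoxin-interacting protein, an alpha-arrestin that binds thioredoxin and lowers glucose uptake by promoting the internalisation of glucose transporters. Arrdc4 encodes a related alpha-arrestin with a similar effect on glucose uptake. Both are textbook targets of the Mondo factors, MondoA (encoded by Mlxip) and ChREBP (encoded by Mlxipl). When glucose 6-phosphate builds up, a Mondo factor paired with Mlx binds carbohydrate response elements, which are made of a pair of CACGNG hexamers 5 bases apart, and raises transcription. MondoA is the main form in most tissues, and ChREBP is best known from liver and fat, where it drives genes of lipid synthesis.

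On GRCm38 with GENCODE M21, Txnip (ENSMUSG00000038393.14) lies at chr3:96557957-96561883 on the plus strand, and Arrdc4 (ENSMUSG00000042659.15) at chr7:68736995-68749241 on the minus strand. Mlxip (ENSMUSG00000038342.15) lies at chr5:123394798-123457932, Mlxipl (ENSMUSG00000005373.13) at chr5:135089890-135138382 and Mlx (ENSMUSG00000017801.15) at chr11:101087277-101092207, all on the plus strand. All 5 genes had an entry in RefSeq's promoter windows (GRCm38.p6), and Mlxipl had entries for 2 starts. Shown are the 250 bases before the start of Txnip and Arrdc4, the arrestins of the set, and of both starts of Mlxipl, the factor that changed most. They are written 5′ to 3′ along the gene, with capitals for matches on either strand to the hexamer CACGNG, the box CCAAT and the forkhead letters GTAAACA. The windows are chr3:96557707-96557956 (+) for Txnip, chr7:68749239-68749488 (-) for Arrdc4, chr5:135089640-135089889 (+) for the upstream start of Mlxipl and chr5:135106641-135106890 (+) for its downstream start.
Txnip: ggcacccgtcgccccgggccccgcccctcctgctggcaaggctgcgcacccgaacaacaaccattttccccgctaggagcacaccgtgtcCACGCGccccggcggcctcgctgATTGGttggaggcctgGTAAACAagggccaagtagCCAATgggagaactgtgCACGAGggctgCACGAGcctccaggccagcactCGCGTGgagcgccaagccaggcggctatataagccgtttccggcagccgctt
Arrdc4: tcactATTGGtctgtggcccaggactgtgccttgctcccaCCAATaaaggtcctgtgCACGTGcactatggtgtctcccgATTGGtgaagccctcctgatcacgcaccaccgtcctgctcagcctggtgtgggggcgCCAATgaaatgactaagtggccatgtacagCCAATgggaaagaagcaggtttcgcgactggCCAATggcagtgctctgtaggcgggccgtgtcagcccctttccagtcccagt
Mlxipl, upstream start: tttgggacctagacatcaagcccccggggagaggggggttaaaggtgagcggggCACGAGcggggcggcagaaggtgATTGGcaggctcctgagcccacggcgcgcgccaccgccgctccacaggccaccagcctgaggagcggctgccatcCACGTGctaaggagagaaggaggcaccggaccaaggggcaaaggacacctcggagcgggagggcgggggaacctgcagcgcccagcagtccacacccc
Mlxipl, downstream start: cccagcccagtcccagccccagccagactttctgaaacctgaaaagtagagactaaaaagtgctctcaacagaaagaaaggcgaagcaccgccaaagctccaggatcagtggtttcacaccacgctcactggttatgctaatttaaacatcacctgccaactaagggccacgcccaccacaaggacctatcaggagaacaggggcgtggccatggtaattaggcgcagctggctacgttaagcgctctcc
The Txnip window held 4 matches to CACGNG, of which those at -85 and at -74, counted from the start site, form a pair 5 bases apart that reads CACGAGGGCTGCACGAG. Such a pair occurred in 24 of 32817 promoter windows of this length (0.0731%), belonging to 23 genes, among them Pklr, which encodes the liver form of pyruvate kinase. Single CACGNG matches occurred in 23.5% of windows. Arrdc4 held a single CACGTG at -193 (a hexamer found in 6.02% of windows) and no pair. It held 6 CCAAT boxes, the letters bound by the factor NF-Y, whereas 33.8% of windows had any and 0.213% had at least 5. Txnip held 2 CCAAT boxes and a GTAAACA, the letters of a forkhead site (3.16% of windows). The upstream window of Mlxipl held 2 matches to CACGNG, and its downstream window none of the motifs searched. Mlx held a CACGTG at -40 and 2 CCAAT boxes, and Mlxip 2 CCAAT boxes. The P53 half-site motif, present in 7.12% of windows, was in none of the 6 windows. CACGTG is also a CACGNG match, so the counts of both overlap. A match is a description of letters and does not show that a factor was bound.

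Counted reads numbered 4010476 to 9693597 per library, with a median of 6108240. The astrocyte markers Slc1a3, Hepacam and Aldoc were present in every library, and the 10 astrocyte markers summed to 77.3 to 398 RPKM (counted reads per kilobase of gene, relative to the library total). Olig1 and Olig2, transcription factors of the oligodendrocyte lineage, were also high, and the 6 markers of oligodendrocyte precursors summed to 320 to 510 RPKM in the 7 groups other than the EGFR inhibitor and HBEGF withdrawal, above the astrocyte sum in each of their libraries. Aldh1l1, a defining marker of astrocytes, was low, at 0.377 to 2.36 RPKM. In bulk samples, fewer cells of a type and less RNA per cell cannot be told apart. Mitochondrial ribosomal RNA made up 12.3 to 29.8% of reads, more with the EGFR inhibitor (23.4 ± 1.77% against 18.7 ± 0.237%) and after HBEGF withdrawal (28.9 ± 1.31% against 17.7 ± 0.732%), and 14.5 ± 1.99%, 19.2 ± 0.249% and 21.8 ± 1.91% on days 2, 7 and 14. With the libraries scaled by median of ratios in place of total reads, the median log2 change over all genes moved from -0.10 to 0 for HBEGF withdrawal and from -0.11 to 0 for day 14 against day 2. Whether counting used strand is not stated, so genes that overlap a neighbour are uncertain. This concerns Txnip, which shares 606 of its 3123 exonic bases with the antisense gene Gm15441, and Mlx, which shares 385 of 1999 with Psmc3ip. Gm15441 had 0 to 16 reads per library, where Txnip had 46 to 1529, and its reads were most numerous with the EGFR inhibitor (4 to 15, against 0 to 1 with DMSO) and after HBEGF withdrawal (7 to 16, against 0 to 1).

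Txnip was the most abundant and the most variable of the 3 members that passed the filter of 1 RPKM in at least 2 libraries. Recounted as RPKM over exons alone, the scale used to set genes side by side, the mean over 25 libraries was 20.6 for Txnip, 6.37 for Arrdc4, 4.42 for Mlx, 3.81 for Mlxip and 0.342 for Mlxipl. On the deposited scale, Txnip averaged 59.7 RPKM with the EGFR inhibitor and 3.10 with HBEGF, a 19.3-fold range over the 9 groups. HBEGF withdrawal (20.4 ± 7.36, SD, n = 2) and day 7 (20.1 ± 5.22, n = 3) followed the EGFR inhibitor. Next came the DMSO control of the P53 inhibitor (13.7 ± 0.941), day 14 (11.1 ± 8.46) and the DMSO control of the EGFR inhibitor (9.78 ± 0.686). The lowest levels were on day 2 (3.37 ± 1.12), with the P53 inhibitor (3.18 ± 0.913) and with HBEGF (3.10 ± 0.199). In this order, libraries of neighbouring groups overlapped except at 3 steps: between the EGFR inhibitor and HBEGF withdrawal, between day 7 and the DMSO control of the P53 inhibitor, and between the DMSO control of the EGFR inhibitor and day 2.

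**Figure D1:**
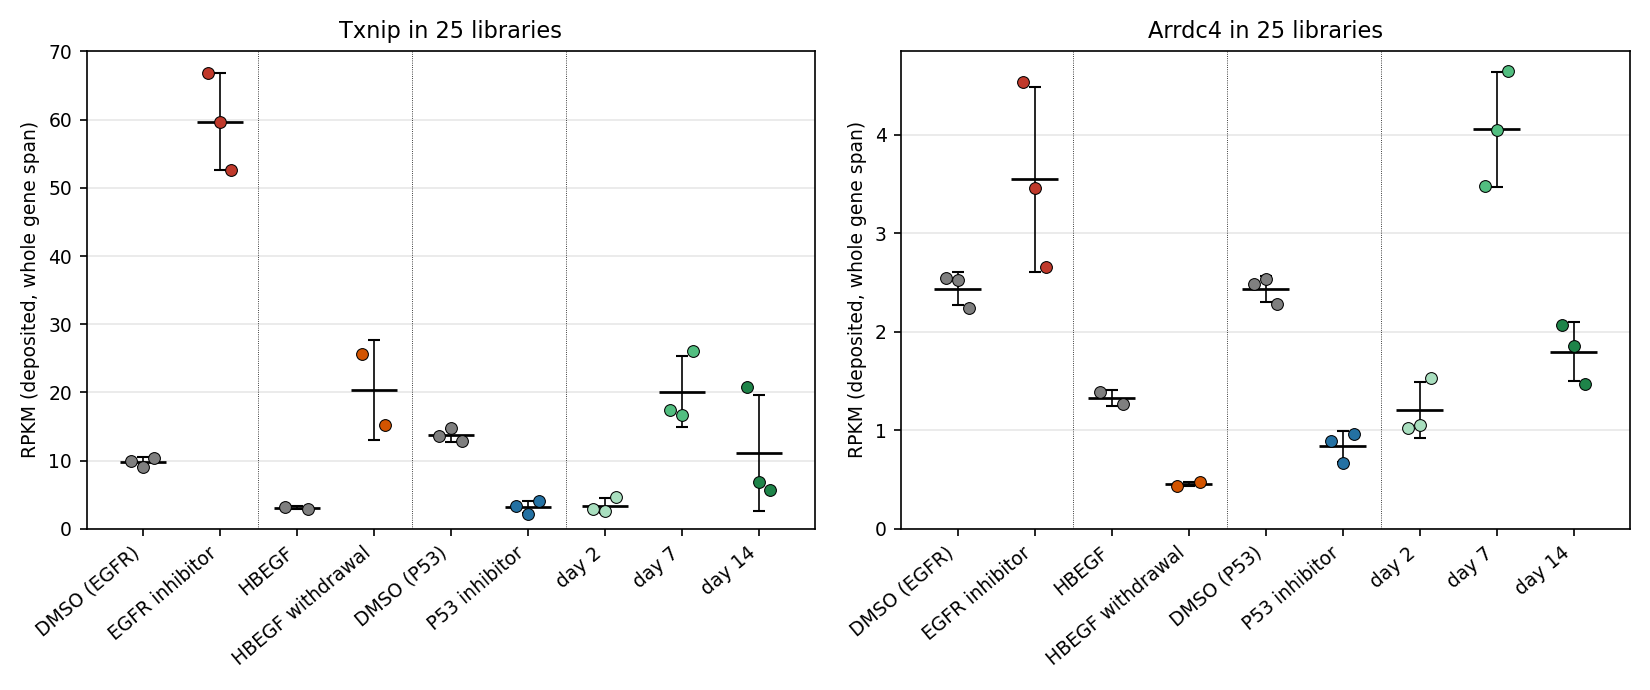
Txnip (left) and Arrdc4 (right) in RPKM in each of the 25 libraries (points), with the group mean (horizontal line) and SD (error bar); dotted lines separate the experiments. The 3 EGFR inhibitor libraries hold the highest Txnip levels, 52.7 to 66.9 RPKM, while Arrdc4 is lowest after HBEGF withdrawal, at 0.437 and 0.471 RPKM.

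Txnip rose with the EGFR inhibitor and after HBEGF withdrawal. The EGFR inhibitor libraries had 66.9, 59.6 and 52.7 RPKM, against 9.98, 9.02 and 10.3 with DMSO. Every treated library was above every control, as for 21.6% of genes tested, and the means differed 6.11-fold. The log2 change was 2.49 ± 0.33 (SE, 95% interval 1.81 to 3.17), with a limma adjusted p of 1.19e-05, the 29th largest increase among 13850 genes tested. The rank depends on the scale: with reads recovered from the RPKM values and fitted instead, the rise was 537th of 18013 genes. All log2 changes of Txnip, Arrdc4 and Mlx are on the log2(RPKM + 1) scale, which understates the change of genes with low values. After HBEGF withdrawal, Txnip had 25.6 and 15.2 RPKM, against 3.24 and 2.96 with HBEGF. These groups also did not overlap (19.8% of genes tested were higher without overlap), and the means differed 6.58-fold. In log2 the rise was 2.34 ± 0.40 (95% interval 1.501 to 3.18, limma adjusted p = 0.000219), the 42nd largest increase. On recovered reads it was 686th of 18013. The change with the inhibitor and that after withdrawal differed by 0.15 ± 0.51 (95% interval -0.93 to 1.23, adjusted p = 0.938), an interval that allows a difference of about 1 in either direction. Among the 3 members that could be tested on this scale, Txnip and Arrdc4 were called in both comparisons. Arrdc4 rose with the inhibitor but fell after withdrawal. Of all genes tested, 38.5% were called for the EGFR inhibitor and 32.6% for HBEGF withdrawal.

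Markers of astrocytes and of other cell types moved in the same comparisons. The astrocyte sum was 379 to 398 RPKM with the EGFR inhibitor against 116 to 147 with DMSO, and 290 to 314 after withdrawal against 125 to 131 with HBEGF. Of its 10 genes, 7 rose and 1 fell with the inhibitor, and 6 rose and 2 fell after withdrawal (7 and 0 when rescaled). Gfap, a filament protein of astrocytes, rose most in both, to 62.8 to 71.5 RPKM from 3.12 to 3.75 and to 60.2 to 63.5 from 3.23 to 5.80. Aldh1l1 was lower in both, at 1.001 to 1.42 against 1.52 to 2.36 and at 0.377 to 0.555 against 1.05 to 1.28, and Slc1a3 was lower after withdrawal (11.1 to 12.4 against 16.6 to 17.5). The 9 microglial markers summed to 11.7 to 25.5 RPKM after withdrawal and 0.0433 to 0.235 with HBEGF, mostly from Lyz2, and to 2.16 to 5.06 with the EGFR inhibitor against 0.433 to 0.778 with DMSO. Tmem119, a defining microglial marker, was at 0 in every library. The 9 neuronal markers summed to 36.1 to 41.5 RPKM with the EGFR inhibitor against 0.818 to 0.991, led by Dlx1 and Dlx2, and to 13.0 to 14.5 after withdrawal against 2.64 to 11.6. The 4 ependymal markers summed to 17.7 to 21.5 RPKM against 2.75 to 3.28 with the inhibitor, and 33.5 to 36.4 against 4.52 to 6.08 after withdrawal. The oligodendrocyte precursor sum was lower in both, at 114 to 137 against 322 to 418 RPKM and at 92.5 to 98.7 against 391 to 418. The 6 oligodendrocyte markers summed to 6.71 to 7.19 RPKM against 3.54 to 5.35 with the inhibitor, and to 26.8 to 29.3 against 8.65 to 17.6 after withdrawal, where 4 of 5 tested rose. The 5 pericyte markers summed to 3.96 to 5.41 against 2.28 to 3.62 and to 12.5 to 19.0 against 3.46 to 4.46, and Kcnj8, a defining pericyte marker, was at 0 in all these libraries. The part of these cells in the change of Txnip and of the other 4 genes was not tested.

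In the time course Txnip rose between day 2 and day 7, and day 14 lay above day 2 without overlap (8.32% of genes tested did). Its levels were 2.92, 2.55 and 4.65 RPKM on day 2, 17.4, 16.7 and 26.1 on day 7, and 20.8, 6.81 and 5.64 on day 14. Day 7 lay above day 2 in every library, as did 9.6% of genes tested, by 5.95-fold in the means, while on day 14 replicate 1 was as high as on day 7 and the others lay between the earlier days. The rise from day 2 to day 7 was 2.27 ± 0.33 in log2 (95% interval 1.59 to 2.96, limma adjusted p = 0.000234), the 8th largest of 13850 genes, in a comparison where 13.7% of genes were called. On recovered reads it was 55th of 18013. Day 14 stayed above day 2 by 1.28 ± 0.33 (adjusted p = 0.0078, with 23.2% of genes called), and differed from day 7 by -0.99 ± 0.33 (adjusted p = 0.267). The last result rests on replicate 1 of day 14: without it the change from day 7 was -1.52 and passed (adjusted p = 0.0149), and the change from day 2 was 0.75. With the 9 time course libraries fitted alone, the adjusted p was 0.0523 for day 7 against day 2 and 0.0934 for day 14 against day 2. The astrocyte marker sum was also lower on day 2 (77.3 to 106 RPKM) than on day 7 (127 to 170) and day 14 (137 to 234). Pericyte markers summed to 1.19 to 2.86 RPKM on day 2, 3.39 to 12.5 on day 7 and 3.72 to 8.47 on day 14, and oligodendrocyte markers to 2.50 to 4.18, 5.25 to 6.85 and 2.87 to 7.21. Microglial markers were highest on day 2 (0.742 to 2.27, against 0.207 to 0.546 on day 7 and 0.147 to 0.221 on day 14). The part of these cells in the changes of Txnip and Arrdc4 over time was not tested. The day comparisons share libraries with each other and are not independent.

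Arrdc4 rose with Txnip from day 2 to day 7, but not after HBEGF withdrawal. Mean levels ran from 4.05 ± 0.583 RPKM on day 7 to 0.454 ± 0.0237 after HBEGF withdrawal, an 8.93-fold range. Between these came the EGFR inhibitor (3.55 ± 0.938), its DMSO control (2.44 ± 0.167) and the DMSO control of the P53 inhibitor (2.43 ± 0.131), then day 14 (1.80 ± 0.301), HBEGF (1.33 ± 0.0820), day 2 (1.20 ± 0.283) and the P53 inhibitor (0.838 ± 0.157). Libraries of neighbouring groups in this order overlapped for 3 pairs: day 7 and the EGFR inhibitor, the DMSO controls, and HBEGF and day 2.

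On HBEGF withdrawal Arrdc4 fell. It had 0.437 and 0.471 RPKM (35 and 29 reads) after withdrawal, against 1.39 and 1.27 (132 and 95 reads) with HBEGF. The groups did not overlap, as for 37.1% of genes tested that were lower, and the mean was 2.92-fold lower. On the log2 scale this was -0.68 ± 0.16 (95% interval -1.01 to -0.35, limma adjusted p = 0.00271), and -1.54 ± 0.35 when the recovered reads were fitted in place of RPKM. With the 4 HBEGF libraries fitted alone the adjusted p was 0.0722. The EGFR inhibitor gave the opposite direction, with 4.53, 3.45 and 2.66 RPKM against 2.54, 2.52 and 2.24 with DMSO. All treated libraries were above all controls, the lowest by a small margin (21.6% of genes tested were higher without overlap), and the log2 change was 0.39 ± 0.13 (95% interval 0.12 to 0.65, adjusted p = 0.0227). That call was lost without replicate 1 of the inhibitor (0.23, adjusted p = 0.153), without replicate 3 of DMSO (0.34, adjusted p = 0.0794) and with the experiment fitted alone (adjusted p = 0.105).

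The difference between both responses of Arrdc4 was tested directly. It was 1.06 ± 0.20 in log2 (95% interval 0.64 to 1.49, limma adjusted p = 0.0108), where 1.83% of 13850 genes were called, and 2.06 ± 0.39 on recovered reads (adjusted p = 0.00203, 3.77% of 18013 genes called). The adjusted p was 0.0528 without replicate 1 of HBEGF (difference 1.03). Mlx, the other member tested on this scale besides Txnip, gave -0.42 ± 0.36 (adjusted p = 0.627).

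In culture Arrdc4 rose and then fell. It had 1.03, 1.05 and 1.53 RPKM on day 2, 3.47, 4.04 and 4.64 on day 7, and 2.06, 1.85 and 1.47 on day 14. Day 7 was above both other days in every library, 3.37-fold above day 2 and 2.26-fold above day 14 in the means, and 9.96% of genes tested were lower on day 14 than on day 7 without overlap. The log2 change was 1.20 ± 0.13 from day 2 to day 7 (95% interval 0.93 to 1.47, adjusted p = 1.91e-05) and -0.85 ± 0.13 from day 7 to day 14 (95% interval -1.12 to -0.58, adjusted p = 0.0348). From day 7 to day 14 only 0.137% of genes (19) were called. The fall was not called without replicate 2 or 3 of day 7 or without replicate 2 of day 14 (adjusted p = 0.052, 0.0955 and 0.0898), nor with the time course fitted alone (adjusted p = 0.673). Day 14 against day 2 gave 0.35 ± 0.13 (adjusted p = 0.0582), with libraries that overlapped, and was called under each of the other scalings tried (log2 change 0.45 to 0.47).

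Set against each other within a library, per kilobase of exon, Txnip and Arrdc4 were close to equal with HBEGF and far apart after its withdrawal. The ratio of Txnip to Arrdc4 was 0.967 and 0.970 with HBEGF and 13.4 and 24.3 after withdrawal. It was 1.48 to 1.91 with DMSO and 6.12 to 8.21 with the EGFR inhibitor. On days 2, 7 and 14 it was 1.01 to 1.26, 1.71 to 2.33 and 1.52 to 4.19. Txnip changed more than Arrdc4 with the inhibitor and in the opposite direction after withdrawal. Across the 25 libraries, log2(RPKM + 1) of Txnip and Arrdc4 correlated with r = 0.63, and with 0.591 after each experiment's mean was subtracted. These libraries share their groups. They also include those of the P53 inhibitor and its control, where the joint fall of both genes is what chose them. Part of the correlation was therefore set by the selection, and the value is a description only.

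Among the other alpha-arrestins, Arrdc3 rose in both treatments. Arrdc3, an adaptor in the trafficking of the beta-adrenergic receptor, had 12.7 ± 0.328 RPKM with the EGFR inhibitor against 6.60 ± 0.636 (limma adjusted p = 0.00683) and 10.6 ± 0.0404 after withdrawal against 4.90 ± 1.85 (adjusted p = 0.0107). It also rose from 3.46 ± 0.577 on day 2 to 7.52 ± 3.34 on day 7 (adjusted p = 0.0187). On recovered reads that rise was called by limma (adjusted p = 0.0169), but not with the time course fitted alone (0.115). Nor was it called there without replicate 1 or 2 of day 2 (adjusted p = 0.0535 and 0.0736). The log2 rise after withdrawal was 1.14 on recovered reads, and 0.77 without replicate 2 of HBEGF. Arrdc2 was called in no comparison, on this scale or on recovered reads. Arrdc1 was below the filter and was tested on recovered reads, a choice made after its values were seen. It had 15 to 67 reads (0.631 ± 0.446 RPKM) with the EGFR inhibitor against 2 to 9 (0.0828 ± 0.0441) with DMSO, and rose by 2.71 ± 0.64 in log2 (95% interval 1.40 to 4.02, adjusted p = 0.000914). After withdrawal its libraries overlapped (14 to 34 reads against 8 to 26), and the change of 0.69 ± 0.62 was not called (adjusted p = 0.406). The difference between these changes of Arrdc1 was 2.03 ± 0.89 (adjusted p = 0.214). Arrdc5 had at most 1 read per library and was not tested. Txnip made up 65.0 ± 0.810% of the family's reads per kilobase of exon with the EGFR inhibitor and 35.9 ± 1.11% with DMSO. Its share was 49.1 ± 10.2% after withdrawal and 20.6 ± 4.32% with HBEGF. Arrdc4 made up 2.73 ± 0.575% after withdrawal and 21.2 ± 4.51% with HBEGF.

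**Figure D2:**
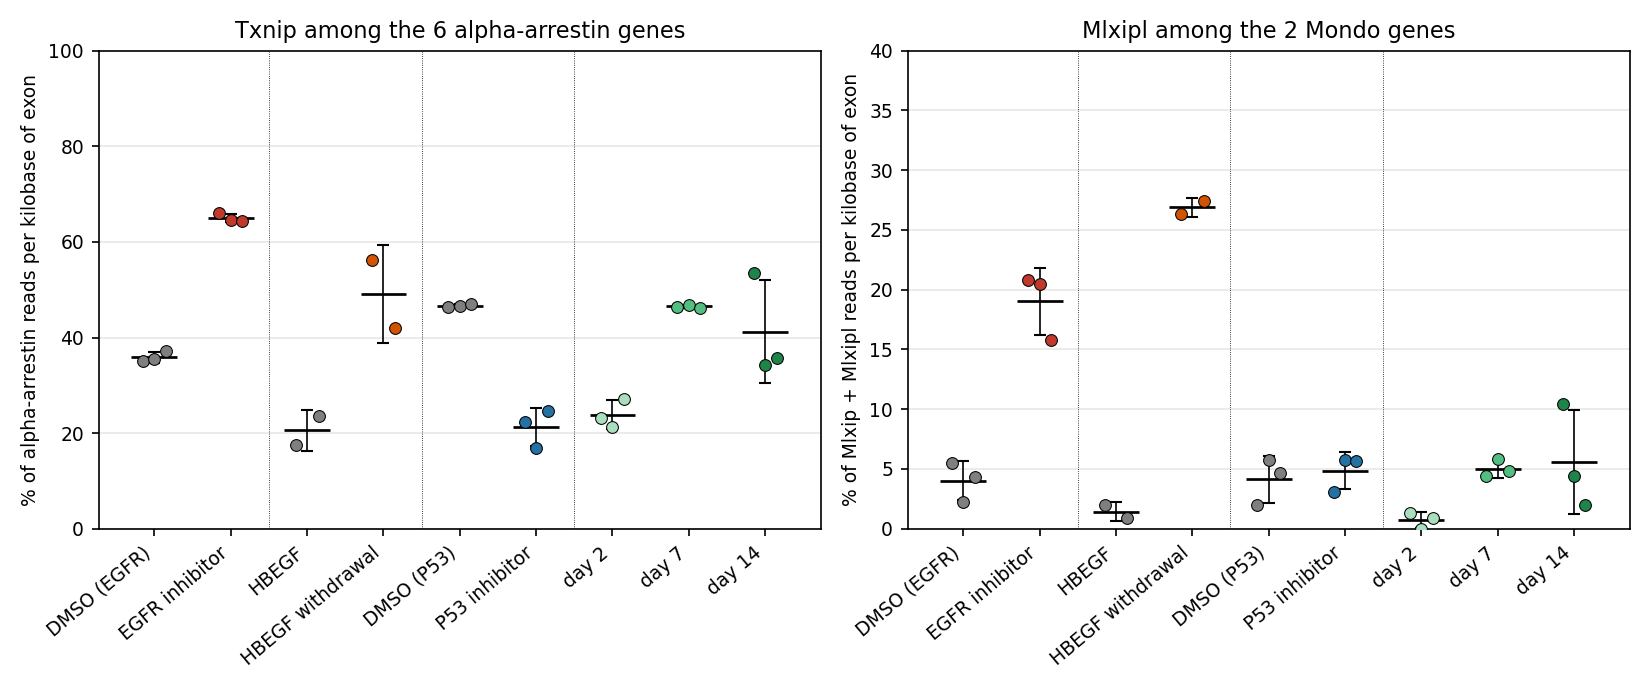
Share of Txnip among the reads per kilobase of exon of 6 alpha-arrestin genes (left, %) and of Mlxipl among those of Mlxip and Mlxipl (right, %, axis to 40), per library (points) with group mean and SD. Txnip reaches 65.0% with the EGFR inhibitor, and Mlxipl 19.0% with the inhibitor and 26.9% after HBEGF withdrawal.

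Of the factors upstream, Mlxipl changed most. It was close to absent in most groups and higher with the EGFR inhibitor and after HBEGF withdrawal. Because neither Mlxip nor Mlxipl reached 1 RPKM in any library, both were tested on recovered reads with voom and limma, a fit added after the data were seen, over 18013 genes with at least 10 reads in at least 2 libraries. Mlxipl had 40, 36 and 22 reads with the EGFR inhibitor, against 6, 3 and 7 with DMSO. All treated libraries lay above all controls, as for 29% of the genes of this fit, 7.41-fold in mean RPKM (0.115 ± 0.0325 against 0.0155 ± 0.00545). The log2 change was 2.79 ± 0.50 (95% interval 1.77 to 3.82, adjusted p = 3.48e-05), in a fit that called 46.9% of genes. After HBEGF withdrawal there were 44 and 40 reads, against 4 and 1 with HBEGF. The rise was 4.23 ± 0.76 in log2 (95% interval 2.69 to 5.78, adjusted p = 4.82e-05, 38.2% of genes called), and a control this low leaves its size uncertain. The difference between both changes was -1.44 ± 0.91 (adjusted p = 0.416).

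In the time course Mlxipl stayed near its floor. There were 3, 0 and 1 reads on day 2, 8, 6 and 4 on day 7, and 13, 7 and 2 on day 14. Day 7 lay above day 2 without overlap, as did 11.7% of the genes of this fit, and neither day 7 (adjusted p = 0.0738) nor day 14 (adjusted p = 0.0864) was called against day 2, in a fit that called 16.4% and 28.2% of genes. Without replicate 3 of day 14 the change from day 2 was 2.41 and passed (adjusted p = 0.0256). At this depth a change of Mlxipl in culture was not detectable with all libraries. Gene counts cannot separate the start sites whose upstream sequences are shown above.

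Mlxip was steady. Its group means ran from 0.416 ± 0.0343 RPKM on day 14 to 0.599 ± 0.0448 on day 2, a 1.44-fold range, with 118 to 338 reads per library. Libraries had 0.552, 0.641 and 0.604 RPKM on day 2 and 0.398, 0.456 and 0.395 on day 14, without overlap (26.4% of the genes of the fit on recovered reads were lower in this way). The log2 change on recovered reads was -0.50 ± 0.14 (95% interval -0.79 to -0.21, adjusted p = 0.00734), and -0.35 with median-of-ratios scaling, where it was not called (adjusted p = 0.0587). With the EGFR inhibitor Mlxip had 0.623, 0.554 and 0.483 RPKM against 0.390, 0.463 and 0.447 with DMSO. The change of 0.34 ± 0.14 (adjusted p = 0.0437) was small beside that of Mlxipl and was lost when any of 5 of the 6 libraries was left out, at adjusted p from 0.0509 to 0.192. After withdrawal it was -0.15 ± 0.17 (95% interval -0.51 to 0.20, adjusted p = 0.511). From day 7 to day 14, where this fit called 0.577% of genes, Mlxip (adjusted p = 0.654) and Mlxipl (0.922) were not called.

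Mlx, the shared partner, was called in none of the 5 comparisons tested, by limma on log2(RPKM + 1) or on recovered reads. Its group means lay between 1.32 ± 0.433 RPKM with the EGFR inhibitor and 2.35 ± 0.366 on day 2, and each group overlapped its neighbour in that order. In some groups the libraries differed by more than the group means did, as after HBEGF withdrawal (1.40 and 2.94 RPKM) and on day 14 (1.27, 2.96 and 1.68). Log2 changes were -0.31 ± 0.23 for the EGFR inhibitor (95% interval -0.79 to 0.17, adjusted p = 0.31), 0.11 ± 0.28 for withdrawal (95% interval -0.48 to 0.70, adjusted p = 0.823) and -0.32 ± 0.23 for day 7 against day 2 (95% interval -0.80 to 0.16, adjusted p = 0.411). These intervals allow changes in either direction. Psmc3ip, its overlapping neighbour, had 3.08 ± 0.116 RPKM with the inhibitor against 7.11 ± 0.297 with DMSO.

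**Figure D3:**
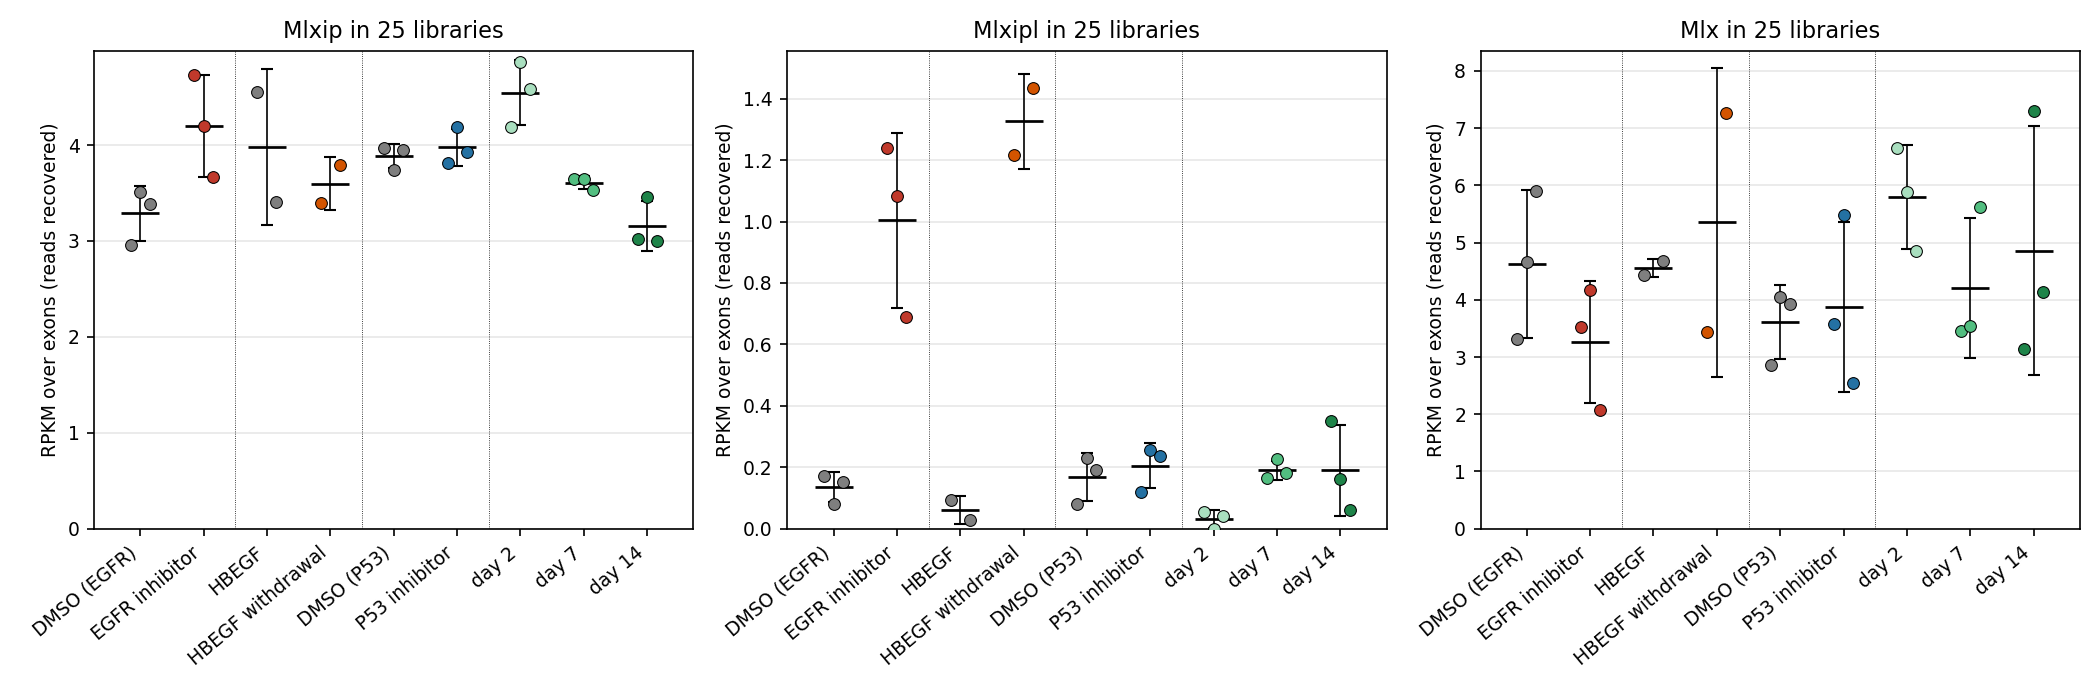
Mlxip, Mlxipl and Mlx in RPKM over exons alone in each of the 25 libraries (points), with group mean (line) and SD (error bar). Mlxip stays between 2.96 and 4.86 in every library, Mlxipl reaches 0.689 to 1.44 with the EGFR inhibitor and after HBEGF withdrawal and at most 0.351 elsewhere, and Mlx scatters between 2.08 and 7.30.

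Mlxipl took a larger share of the Mondo transcripts in both treatments. Per kilobase of exon it made up 19.0 ± 2.79% of Mlxip plus Mlxipl with the EGFR inhibitor and 26.9 ± 0.780% after HBEGF withdrawal. In the other 7 groups its mean share was 0.740 to 5.60%. Mlxip remained the more abundant of these factors in all 9 groups.

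**Figure D4:**
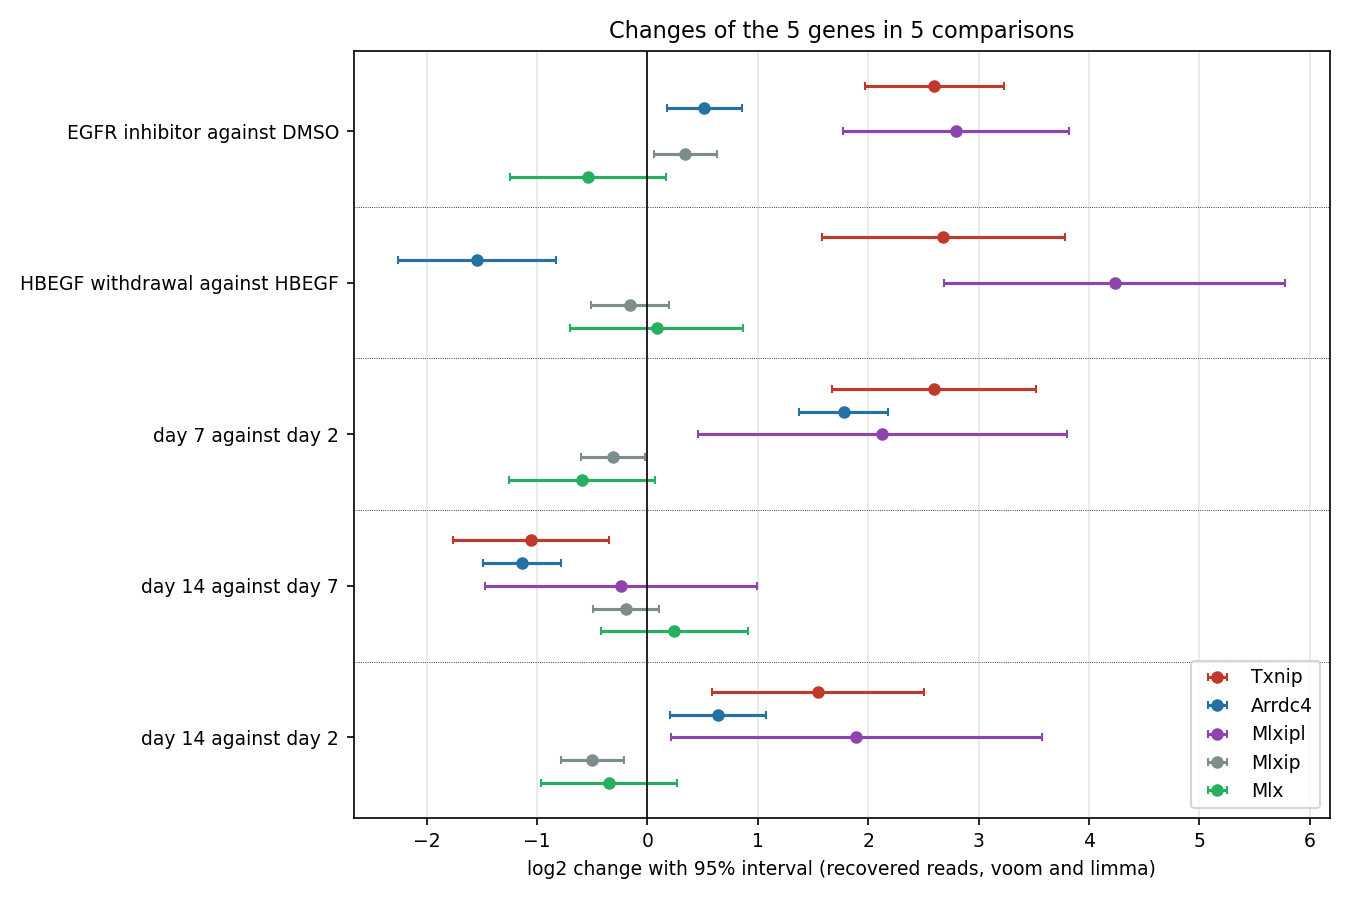
Log2 change (points) and 95% interval (bars) of each of the 5 genes in the 5 comparisons that were tested, all from the fit on recovered reads so that the genes share a scale. Txnip and Mlxipl lie to the right in both treatments, at 2.60 and 2.79 for the EGFR inhibitor and 2.68 and 4.23 for HBEGF withdrawal, while Arrdc4 lies at 0.52 and -1.54.

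With the P53 inhibitor Txnip and Arrdc4 were lower, which is the observation that chose them. Txnip had 3.33, 2.21 and 4.01 RPKM against 13.6, 14.7 and 12.9 with DMSO, a mean 4.31-fold lower. Arrdc4 had 0.886, 0.662 and 0.965 RPKM against 2.48, 2.53 and 2.29, a mean 2.91-fold lower. For both genes every treated library was below every control, beside 11.3% of genes tested that were lower without overlap. By the size of the log2 difference, Txnip was 23rd and Arrdc4 232nd among genes lower with the inhibitor. On recovered reads they were 40th and 178th of 18013. Few genes moved in this comparison (25 of 13850, 0.181%, were called). Libraries of the factors upstream overlapped: Mlxip had 0.524 ± 0.0252 RPKM against 0.512 ± 0.0164, Mlxipl 6, 13 and 8 reads against 2, 9 and 5, and Mlx 1.57 ± 0.604 RPKM against 1.46 ± 0.262. The astrocyte marker sum was 116 to 117 RPKM against 146 to 151, the pericyte sum 0.415 to 0.523 against 1.28 to 1.68, the oligodendrocyte sum 3.75 to 4.21 against 5.75 to 6.22 and the neuronal sum 0.608 to 0.697 against 0.880 to 1.01. The microglial sum was also lower (0.0717 to 0.139 against 0.144 to 0.253). The oligodendrocyte precursor sum, the largest, overlapped (408 to 443 against 430 to 510), and the median log2 change of its genes was -0.40. None of these lists had a gene called by limma on log2(RPKM + 1), and 0 to 3 per list had an unadjusted p under 0.05. On recovered reads 1 astrocyte marker and 2 oligodendrocyte precursor markers were called. The part of these cells was not tested. The Txnip share of the alpha-arrestin family was 21.3 ± 3.97% against 46.7 ± 0.361%. Arrdc3 had 5.16 ± 0.0835 RPKM against 5.58 ± 0.472. Among genes of P53 and its targets, 0 of 15 tested were called with the inhibitor by limma (1 had an unadjusted p under 0.05, and 1 was called on recovered reads). Named outside the rule for genes, after their values were seen, the P53 targets Cdkn1a had 24.6 ± 1.60 RPKM against 16.3 ± 1.41 (limma adjusted p = 0.687) and Mdm2 4.80 ± 0.0887 against 4.85 ± 0.340.

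Thioredoxin, the protein that Txnip binds, moved opposite to Txnip in both EGFR treatments. Txn1, which encodes it, had 10.6 ± 0.701 RPKM with the EGFR inhibitor against 59.8 ± 1.39 with DMSO (log2 change -2.39 ± 0.19, limma adjusted p = 7.44e-08) and 15.7 ± 2.92 after withdrawal against 50.2 ± 9.47 (adjusted p = 4.16e-05). The ratio of Txnip to Txn1 per kilobase of exon was 0.574 ± 0.0886 with the inhibitor against 0.0166 ± 0.000980, and 0.129 ± 0.0235 after withdrawal against 0.00642 ± 0.00161. With the P53 inhibitor Txn1 had 105 ± 6.69 RPKM against 63.3 ± 8.03 (adjusted p = 0.146), and the ratio was 0.00311 ± 0.00107 against 0.0222 ± 0.00267. Of 16 genes of the thioredoxin system tested, 3 rose and 6 fell with the EGFR inhibitor (4 and 5 with median-of-ratios scaling). This is 56.2% called beside 38.5% of all genes, with a median log2 change of -0.13 beside -0.02. Txnl1, a thioredoxin-like protein, fell with the inhibitor (2.03 ± 0.0932 against 4.21 ± 0.552 RPKM), and Prdx6, a peroxiredoxin, rose (35.7 ± 1.60 against 15.8 ± 0.321). After withdrawal 0 rose and 4 fell (25% called, beside 32.6%), and with median-of-ratios scaling 2 and 2. Their median was -0.20, beside -0.10 over all genes, and Glrx3 and Txnl1 were among those that fell. From day 2 to day 7, 1 rose and 3 fell (2 and 3 when rescaled), among them Txnrd1, thioredoxin reductase, from 4.68 ± 1.11 to 2.31 ± 0.347 RPKM (adjusted p = 0.0021). By day 14, 2 had risen and 4 fallen (2 and 2 when rescaled). Over these days 25% and 37.5% were called, beside 13.7% and 23.2% of all genes.

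Of 25 glucose-responsive genes known as targets of MondoA and ChREBP, 13 could be tested, and these did not move with Txnip as a group. With the EGFR inhibitor 3 of 13 tested rose and 8 fell (84.6% called, beside 38.5% of all genes), with a median log2 change of -0.79. Klf10, a zinc finger factor, fell to 3.71 ± 0.492 RPKM from 21.0 ± 5.79 (adjusted p = 1.02e-06). Acly, which makes cytosolic acetyl-CoA, fell to 1.20 ± 0.0730 from 3.75 ± 0.705, and Scd1, a fatty acid desaturase, to 10.5 ± 1.14 from 77.0 ± 15.7. After withdrawal 2 rose and 8 fell (76.9% called, beside 32.6%; 3 and 6 when rescaled), with a median of -0.82. Klf10 (1.28 ± 0.624 against 10.98 ± 2.35) and Acly (1.24 ± 0.0232 against 3.12 ± 0.832) fell again, and Pfkfb3, an activator of glycolysis, rose (1.53 ± 0.0707 against 0.684 ± 0.139). From day 2 to day 7, 2 rose and 2 fell of 13, and from day 2 to day 14, 3 rose and 4 fell. The shares called were 30.8% and 53.8%, beside 13.7% and 23.2% of all genes. Mid1ip1, a regulator of acetyl-CoA carboxylase, rose in both (34.0 ± 7.93 on day 7 and 41.7 ± 7.28 on day 14, against 16.1 ± 0.779 RPKM on day 2). With the P53 inhibitor 0 of 13 were called by limma (2 at an unadjusted p under 0.05, and 0 on recovered reads). Of the 23 genes with the paired CACGNG motif, 10 were tested. With the EGFR inhibitor 3 of these rose, Txnip among them, and 3 fell, where 38.5% of all genes were called. After withdrawal 2 rose, Txnip again among them, and 2 fell (32.6% of all genes called). Without Txnip their median log2 changes were -0.22 and -0.15, beside -0.02 and -0.10 over all genes. From day 2 to day 7 Txnip alone was called (13.7% of all genes), and from day 2 to day 14, 2 rose and 2 fell (23.2%).

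Of 17 genes of glucose uptake and phosphorylation, 4 could be tested. Slc2a1, which encodes the transporter GLUT1, rose with the EGFR inhibitor (3.23 ± 0.438 against 1.36 ± 0.0989 RPKM, adjusted p = 0.000284) and after withdrawal (6.37 ± 0.226 against 2.66 ± 0.849, adjusted p = 0.000377). G6pdx, the first enzyme of the pentose phosphate pathway, fell in both (4.09 ± 0.114 against 7.33 ± 0.592, and 4.55 ± 0.861 against 7.74 ± 0.827), and from day 2 to day 7 (11.2 ± 0.354 to 5.80 ± 0.833). Gpi1 also fell with the inhibitor. With the inhibitor 1 rose and 2 fell, and after withdrawal 1 rose and 1 fell. These are 75% and 50% of the 4, beside 38.5% and 32.6% of all genes. Their median log2 change was -0.22 with the inhibitor and -0.14 after withdrawal (0.08 when rescaled).

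In the MYC, MAX and MLX network, whose members share partners or binding letters with Mlx, 7 of 10 genes rose and 2 fell with the EGFR inhibitor, and 5 rose and 2 fell after withdrawal (6 and 1 when rescaled), with medians of 0.63 and 0.34. These are 90% and 70% of the list, beside 38.5% and 32.6% of all genes. Myc fell in both (11.4 ± 0.802 against 39.2 ± 5.94 RPKM, and 16.6 ± 1.29 against 46.5 ± 5.67). Mycn rose in both (8.91 ± 1.17 against 1.98 ± 0.469, and 8.64 ± 0.185 against 1.57 ± 0.397). Mxi1 and Mxd1, antagonists of MYC, were among those that rose with the inhibitor and after withdrawal. From day 2 to day 7, 3 rose and 0 fell, led by Mycl (3.67 ± 0.247 against 1.46 ± 0.246). By day 14, 3 had risen and 2 fallen (5 and 1 when rescaled). The shares called over these days were 30% and 50%, beside 13.7% and 23.2% of all genes. Mycl was lower with the P53 inhibitor (2.04 ± 0.128 against 4.56 ± 0.233 RPKM, adjusted p = 0.0486), the single gene called there by limma on log2(RPKM + 1) among the 7 gene lists.

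Of the regulators and partners of Txnip, 4 of 15 tested rose and 2 fell with the EGFR inhibitor, and 4 rose and 7 fell after withdrawal (4 and 4 when rescaled). The shares called, 40% and 73.3%, stand beside 38.5% and 32.6% of all genes, so that the share with the inhibitor was close to the background. Their medians were -0.03 (0.05 when rescaled) and -0.20. The forkhead factors Foxo3 (1.87 ± 0.0246 against 0.856 ± 0.0306 RPKM), Foxo4 (1.87 ± 0.401 against 0.574 ± 0.143) and Foxo1 (1.08 ± 0.0692 against 0.568 ± 0.127) rose with the inhibitor. After withdrawal Foxo3 rose (1.98 ± 0.0597 against 0.947 ± 0.285), while Wwp1, a ubiquitin ligase, and Nfya, a subunit of NF-Y, fell (0.574 ± 0.0751 against 1.10 ± 0.0756, and 1.46 ± 0.0652 against 2.67 ± 0.268). From day 2 to day 7, 1 rose and 3 fell (1 and 1 when rescaled). These were led by Prkaa1, a catalytic subunit of AMPK, the kinase that marks Txnip for degradation (1.14 ± 0.107 against 1.53 ± 0.0729). By day 14, 1 had risen and 4 fallen (1 and 2 when rescaled). Over these days 26.7% and 33.3% of this list were called, beside 13.7% and 23.2% of all genes. P53 and its targets were called for 1 gene up and 4 down of 15 with the inhibitor, 0 and 5 after withdrawal (3 and 2 when rescaled), 1 and 4 from day 2 to day 7, and 0 and 6 from day 2 to day 14 (0 and 2 when rescaled). The 33.3% of them called in each treatment was near the share of all genes after withdrawal (32.6%) and below it with the inhibitor (38.5%). Against day 2, 33.3% were called on day 7 and 40% on day 14, above the 13.7% and 23.2% of all genes, though few remained on day 14 when rescaled. Their median was -0.30 with the inhibitor and -0.13 after withdrawal (0.06 when rescaled). Plk2, a kinase, fell with the inhibitor (2.26 ± 0.354 against 7.87 ± 0.247) and after withdrawal (2.26 ± 0.575 against 6.47 ± 0.432), and Mdm2 fell from day 2 to day 7 (7.30 ± 0.863 to 5.19 ± 0.443). No gene of these 7 lists was called from day 7 to day 14 by limma, on log2(RPKM + 1) or on recovered reads, and 0 to 3 per list had an unadjusted p under 0.05.

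Over the 25 libraries, the genes whose levels were most like those of Txnip, among 1595 with a mean of at least 5 RPKM, were Miat (r = 0.913, a long noncoding RNA), Nnat (0.883), Aldoc (0.881, the brain aldolase), Ttyh1 (0.879), Mfge8 (0.873) and Plxnb1 (0.873). After subtraction of each experiment's mean these correlations were 0.856 to 0.913. For Arrdc4 they were Zfp266 (0.82), Zfp354c (0.809), Sike1 (0.803), Tra2a (0.797), Zbtb33 (0.762) and Usp22 (0.753). For Mlxipl they were Ptprs (0.946), Igfbp5 (0.945) and Cpe (0.93), for Mlx Cdk2ap2 (0.689), Bax (0.68) and S100a16 (0.672), and for Mlxip Mex3a (0.658), Sox12 (0.644) and Map4k4 (0.576). With experiment means subtracted, the correlations were 0.662 to 0.848 for Arrdc4 and 0.923 to 0.944 for Mlxipl. They were 0.598 to 0.655 for Mlx and 0.656 to 0.711 for Mlxip. Txnip and Arrdc4 had no gene in common in these lists. Because the lists are short and drawn from 1595 candidates, this does not show that their patterns differ. The correlation between Txnip and Arrdc4 themselves was 0.63. The libraries include those of the P53 inhibitor and its control, which chose both genes, so part of that value was set by the selection. The correlations are of log2(RPKM + 1), the libraries share groups, experiments and depth, and they describe a shared pattern over these samples.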

How the data were processed

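The authors deposited a table of RPKM values for 54429 genes in 25 libraries. Per the submitters' processing notes, reads were aligned to GRCm38 with STAR and counted with HTSeq, and edgeR and limma were used. Their versions, the annotation and the use of strand are not stated in the sources used here. RPKM multiplied by whole gene span (GENCODE M21, matched for 98.7% of entries) added up to 999076 to 1002555 per library, so the deposited RPKM uses the gene span. Reads recovered from it were whole for 99.0 to 99.3% of values of up to 20 reads, within 0.1. Levels per kilobase of exon were computed from these reads.

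Genes with at least 1 RPKM in at least 2 libraries (13850, with 3 of the 5 members) were tested with limma 3.58.1 in R 4.3.3 on log2(RPKM + 1), with a mean per group in a single fit (16 residual degrees of freedom), trend and robust empirical Bayes, and Benjamini-Hochberg adjustment over all genes, two-sided, called below 0.05. Mlxip, Mlxipl and the alpha-arrestin Arrdc1 were tested with voom on recovered reads (at least 10 in at least 2 libraries, 18013 genes), a fit chosen after the data were seen, and the script was tested on simulated data. Each p-value given comes from these limma fits and is adjusted. "Rescaled" means median-of-ratios scaling, and such pairs give genes that rose, then fell. The 5 members and 7 gene lists were chosen with earlier results of these data known. Beside the members, up to 3 called genes of each list with the smallest p were eligible to be named, and the most alike genes by correlation (6 for Txnip and Arrdc4, 3 for the others). Promoter sequences are RefSeq's. Tables and plots were made with pandas 2.3.3, numpy 2.4.6 and matplotlib 3.10.9 under Python 3.11.15. Same-numbered replicates correlated with r from -0.0951 to 0.118 after removal of group means (17 pairs), and different numbers with -0.146 to 0.0752 (32 pairs), so the numbers were not taken to pair samples. No library pair was identical.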

Additional observations from a re-analysis of the deposited data

Results flagged for a closer look

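The response of Arrdc4 differed between the EGFR inhibitor and HBEGF withdrawal, by a test of the difference itself. It rose with the EGFR inhibitor and fell after HBEGF withdrawal, and the changes differed by 1.06 in log2 on the log2(RPKM + 1) scale (limma adjusted p = 0.0108, range over the alternatives 0.00318 to 0.0528) and by 2.06 on recovered reads (adjusted p = 0.00203). All 3 inhibitor libraries were above their controls and both withdrawal libraries below theirs, as for 21.6% and 37.1% of genes tested. The call for the rise alone was lost without replicate 1 of the inhibitor or replicate 3 of DMSO (limma adjusted p = 0.153 and 0.0794). With each experiment fitted alone, neither the rise nor the fall was called (adjusted p = 0.105 and 0.0722). The treatments also differ in when they began, on day 2 for the inhibitor and on the day of preparation for HBEGF, which cannot be told apart from the treatment itself.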

How the results depend on the processing

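No alternative reversed a direction that was called, and none of those tried ended the calls of Txnip for the EGFR inhibitor (adjusted p up to 0.00045) or HBEGF withdrawal (up to 0.0477). The number of genes called for the EGFR inhibitor, HBEGF withdrawal, the P53 inhibitor, day 7 against day 2 and day 14 against day 2 was 2069, 1882, 8, 825 and 1267 with a filter of 5 RPKM, where fewer genes (3995) were tested. With each experiment fitted alone, 474 genes were called for HBEGF withdrawal, 183 for day 7 against day 2, 1335 for day 14 against day 2 and 0 for day 14 against day 7 (805 at an unadjusted p under 0.05; voom on recovered reads gave 47). Voom called 72 for the P53 inhibitor, and no filter 44 for day 14 against day 7. Leaving out each library gave 4554 to 4790 (EGFR inhibitor), 3169 to 3786 (withdrawal), 2 to 37 (P53 inhibitor), 932 to 1688 (day 7 against day 2), 0 to 19 (day 14 against day 7) and 2082 to 3001 (day 14 against day 2). Fitted alone, Arrdc4 was no longer called for the EGFR inhibitor (0.39), withdrawal (-0.68) or day 14 against day 7 (-0.85), nor Txnip for day 7 (2.27) or day 14 (1.28) against day 2, nor Mlxip for the EGFR inhibitor (0.34). Leaving out libraries, Arrdc4 ranged over 0.23 to 0.53 for the inhibitor, -0.94 to -0.77 for day 14 against day 7, 0.28 to 0.45 for day 14 against day 2 and 0.91 to 1.21 for the difference between treatments. Txnip ranged over -1.52 to -0.66 for day 14 against day 7, Mlxip over 0.26 to 0.44 for the inhibitor and Mlxipl over 1.36 to 2.41 for day 14 against day 2. Arrdc4 for day 14 against day 2 became called with a pseudocount of 0.1 (0.55), median-of-ratios scaling (0.45), quantile normalization (0.45), voom (0.64) and scaling without mitochondrial genes (0.47, added after the data were seen). Mlxip for the inhibitor was not called without a filter (0.12 on log2(RPKM + 1)), nor for day 14 against day 2 with median-of-ratios scaling (-0.35). With the replicate number as a block, 6 genes were called for the P53 inhibitor and 7 for day 14 against day 7. In that replicate block fit Arrdc4 was not called for day 14 against day 7 (-0.85, adjusted p = 0.0626) or for the difference between treatments (1.06, adjusted p = 0.0525), nor Mlxip for the EGFR inhibitor (0.34, adjusted p = 0.064), and no other call on the 5 genes changed. The cause of these differences was not tested. Reads limit Mlxipl most, with 0 to 13 in the 7 groups outside both EGFR treatments.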
